A study of Mus musculus with 12 samples.

Results

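Hearts of vehicle-treated mice were compared between 48 h and 24 h after dosing, to see how far hearts that received no test compound differ between the sampling times. The comparison uses the 6 samples whose titles give DMSO as the treatment, of 12 samples in the series: 3 arrays of hearts taken 24 h and 3 arrays of hearts taken 48 h after dosing. All were Balb/c mice given the vehicle DMSO by gavage; no untreated hearts and no other dose of vehicle are among the samples used, and the age and sex of the mice are not given in the sources used here. RNA came from myocardium, and polyA RNA was copied into biotin-labelled cRNA that was detected with streptavidin-Cy5 on 1-colour arrays. The labels call the 3 arrays of a group biological replicates, whereas the design text says that the hearts of a group were pooled for RNA isolation, so the p-values measure the spread between these samples, which may be technical.

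DMSO (dimethyl sulfoxide) is a polar solvent used to dissolve compounds for dosing, and gavage delivers it into the stomach through a tube. Genes that can differ between days in such hearts include those of the type I interferon response, in which interferon receptors at the cell surface switch on antiviral genes that carry interferon-stimulated response elements in their promoters. They also include genes of energy metabolism, on which the beating heart relies for fatty acid and glucose oxidation, immediate early genes that answer handling or injury within minutes, and genes of the circadian clock, whose level depends on the hour of the day.

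Values are levels on a log2 scale, read as such from their range, after the 6 arrays were brought to the same distribution; a difference is the mean at 48 h minus the mean at 24 h. As deposited, the arrays had medians of 6.03 to 6.04 at 24 h and 6.35 at 48 h, with nearly equal distributions within each time, so the times had been scaled apart. Time after dosing and any separate handling of the 24 h and 48 h arrays cannot be told apart. Between 768 and 3997 of 36227 probes had no value on an array. Pairs of arrays correlated, across the probes with values, at 0.887 to 0.917 within 24 h, at 0.932 to 0.937 within 48 h and at 0.879 to 0.948 between the times. The highest of these was between 24 h replicate 1 and 48 h replicate 2, so the arrays did not separate by time. The missing values of 24 h replicate 1 were crowded in a range of probe numbers: they took up to 76.3% of the probes of a block of neighbouring numbers, against 11% over the whole array.

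**Figure D1:**
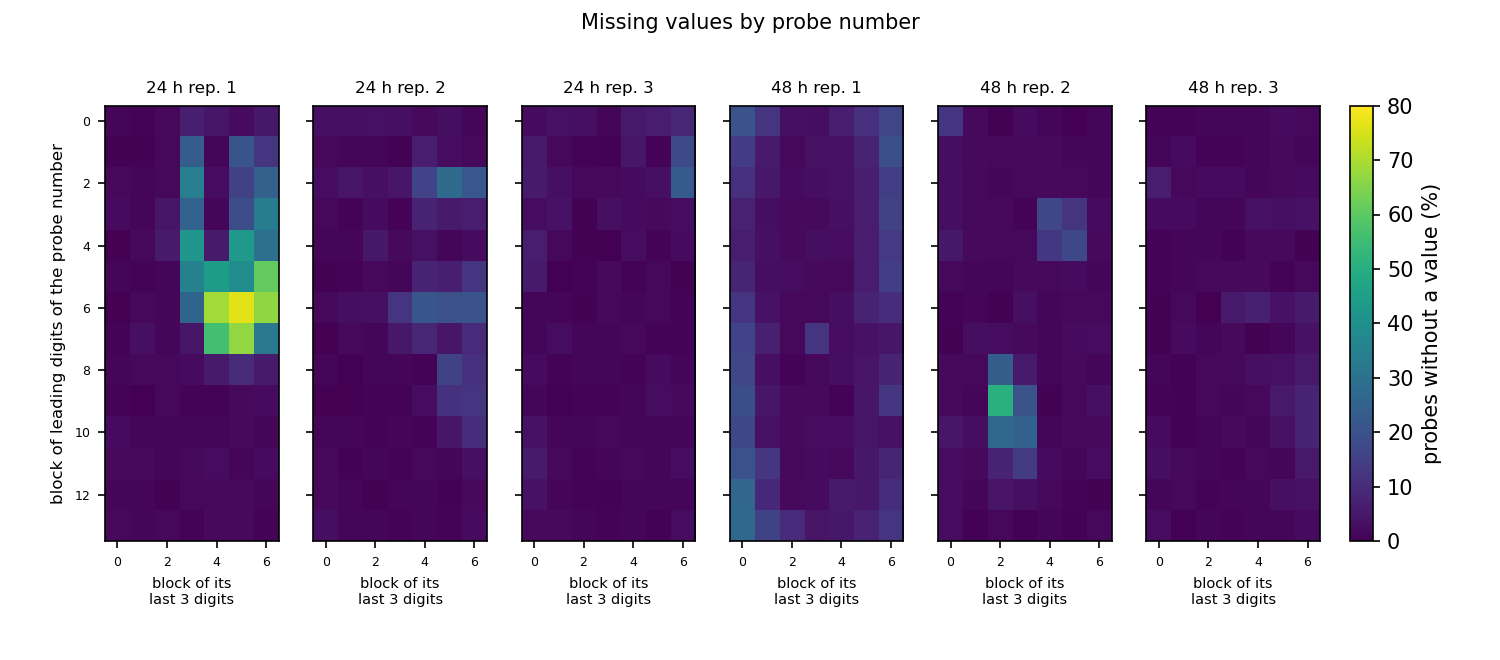
Share of probes without a value (colour, %) in 98 blocks of probe numbers, each with at least 100 probes, on each of the 6 arrays, with the leading digits of the number down the side and its last digits across. The blocks of 24 h replicate 1 reach 76.3% and those of 48 h replicate 2 reach 50.7%.

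No probe differed between 48 h and 24 h past the threshold: limma called 0 of 35450 tested probes (0%) at an adjusted p under 0.05, and the smallest adjusted p was 0.292. At an unadjusted p under 0.05 there were 1368 probes (3.86%), of which 727 were higher (2.05%) and 641 lower (1.81%) at 48 h. Without 24 h replicate 1 that count was 4080, and without 24 h replicate 2, 24 h replicate 3 or 48 h replicate 1 it was 857, 851 or 808. Each gene was represented by its named probe of highest mean, which gave 17703 genes, with a median difference of 0.02. Of these, 427 (2.41%) were higher and 276 (1.56%) lower at an unadjusted p under 0.05. The values of each time, 2 or 3 a gene, did not overlap for 1206 genes higher (6.81%) and 1037 genes lower (5.86%) at 48 h. Of these, 350 higher and 271 lower genes had no value on 24 h replicate 1. Among genes with a value on all 6 arrays the shares were 4.75% and 4.06%. On simulated data for this comparison, 35450 probes, limma found 0% of shifts of 1 log2 unit, 14% at 2, 48% at 3 and 58% at 4, so smaller differences were not detectable with 3 arrays a group. For this reason the genes below are given by their values on each array, and none of them passed the test. Their adjusted p in limma's test was 0.852 or higher in each case.

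Interferon response genes had, of the 41 lists, the most members lower at 48 h at an unadjusted p under 0.05. Of 35 tested members of the list of 41, 25 had a lower and 10 a higher mean at 48 h, with a median of -0.28 against 0.02 over all genes. At that p, 9 members were lower (1.56% over all genes in that direction) and 0 were higher, and for 10 members the arrays of the times did not overlap with 48 h lower (5.86% over all genes). Array means of a list, here and below, use its members with a value on all 6 arrays. From 29 such members the list's mean level was 8.34, 8.83 and 9.37 at 24 h and 8.79, 7.66 and 8.44 at 48 h, which overlap. The mean on 24 h replicate 1 was below those on 48 h replicates 1 and 3. The median was -0.62 without 48 h replicate 1, -0.45 without 48 h replicate 3 and -0.22 without 24 h replicate 3. It was below 0 in each of the alternatives run, which gave -0.66 to -0.21.

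The promoters of 4 of these genes show the element through which the pathway acts, and they are printed because they include both genes that were lower and a gene that was not. Each line is a stretch of 60 bases upstream of the gene start from RefSeq (assembly GRCm38.p6), 5′ to 3′ on the strand of the gene, with the core of the interferon-stimulated response element in capitals (GAAA, any 2 bases, GAAA); neighbouring cores can overlap.
Bst2, chr8:71537562-71537621, minus strand: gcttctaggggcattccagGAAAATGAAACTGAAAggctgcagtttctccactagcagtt
Oas3, chr5:120777700-120777759, minus strand: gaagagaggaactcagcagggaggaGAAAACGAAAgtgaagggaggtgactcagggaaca
Oas1a, chr5:120907526-120907585, minus strand: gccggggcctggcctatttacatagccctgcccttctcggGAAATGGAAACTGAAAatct
Igtp, chr11:58199496-58199555, plus strand: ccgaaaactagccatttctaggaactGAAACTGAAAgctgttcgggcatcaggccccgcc
The core was searched on both strands in windows from 250 bases before to 50 bases after each gene start. It was in 1079 of 27025 genes (3.99%) and in 15 of the 26 interferon response genes that were tested and had a promoter in the table (57.7%). Among those 26, it was in 9 of 18 genes with a lower mean at 48 h (50%) and in 6 of 8 genes with a higher mean (75%), so the core alone did not separate the genes by direction.

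The member with the lowest difference was Oasl1. Oasl1, an oligoadenylate synthetase-like protein, had levels of 8.94, 11.38 and 11.47 at 24 h and of 8.22, 7.99 and 8.27 at 48 h, a difference of -2.44 (SE 0.69). All 48 h arrays were below all 24 h arrays, and 24 h replicate 1 was closer to the 48 h arrays than to its own group. Bst2, which holds budding viruses at the cell surface (tetherin), was at 11.47, 13.06 and 13.13 at 24 h and at 10.68, 10.60 and 11.30 at 48 h, a difference of -1.70 (SE 0.51). Zbp1, a sensor of nucleic acid in the Z form, was at 8.72, 9.71 and 10.16 against 8.24 or less on the 48 h arrays (7.56, 7.62 and 8.24), a difference of -1.72 (SE 0.43). For both, the groups did not overlap and 24 h replicate 1 was again the lowest 24 h array. Usp18, which removes ISG15 from proteins and restrains interferon signalling, had no value on 24 h replicate 1, 11.51 and 11.52 on the other 24 h arrays, and 10.12, 8.46 and 10.10 at 48 h, a difference of -1.96 (SE 0.59).

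Of the oligoadenylate synthetase family, Oas3 and Oas1a were apart between the times, and Oas2 (-0.92) and Oas1b (-1.25) overlapped. Oas3 was at 7.27, 8.24 and 8.96 at 24 h and at 6.49, 6.37 and 7.06 at 48 h, a difference of -1.52 (SE 0.47), and its second probe differed by -0.15. Oas1a was at 8.06, 6.96 and 5.93 at 24 h and at 5.06, 5.09 and 5.79 at 48 h, a difference of -1.67 (SE 0.57); its lowest 24 h array was 24 h replicate 3. Ifih1, the RNA sensor MDA5, was at 11.16, 12.79 and 12.79 against 11.004, 10.75 and 11.14, a difference of -1.28 (SE 0.49). The groups did not overlap for Oas3, Oas1a and Ifih1, though Ifih1 on 24 h replicate 1 was only just above the highest 48 h array. Parp14, an ADP-ribosyltransferase, and Isg20, an exonuclease, differed by -0.94 (SE 0.33; second probe -0.59) and -0.82 (SE 0.29), without overlap. Mx2, a dynamin-like GTPase, was at 8.51, 10.86 and 11.21 at 24 h and at 8.95, 7.61 and 8.47 at 48 h, and its groups overlapped through 24 h replicate 1. Oasl2 and Xaf1 split the arrays otherwise: Oasl2 was at 4.74 on 24 h replicate 1 and at 4.73 on 48 h replicate 2, and between 10.60 and 12.31 on the other arrays. Without 48 h replicate 2 the difference of Oasl2 was 1.00 and that of Xaf1 0.41, against -0.99 and -1.17 with all 6 arrays.

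Not all of the list was lower. Gbp2, a guanylate-binding GTPase, was at 6.49, 4.71 and 6.39 at 24 h and at 8.61, 5.997 and 6.30 at 48 h, a difference of 1.11 (SE 0.83). Igtp differed by 0.71 (SE 0.64) and Irf9, an interferon regulatory factor, by 0.67 (SE 0.53). Leaving out 1 array moved these values: Igtp was at 0.05 without 24 h replicate 2, and without 48 h replicate 1 Gbp2 was at 0.28, Irf9 at 0.21 and Iigp1 at 0.10. Iigp1 differed by 0.66 (SE 0.59) on its brighter probe and by -1.01 on its second probe. The groups overlapped for each of these genes. Irf7 had no value on 2 of the 24 h arrays and was not tested, and the other listed members without a value here are not analysed.

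**Figure D2:**
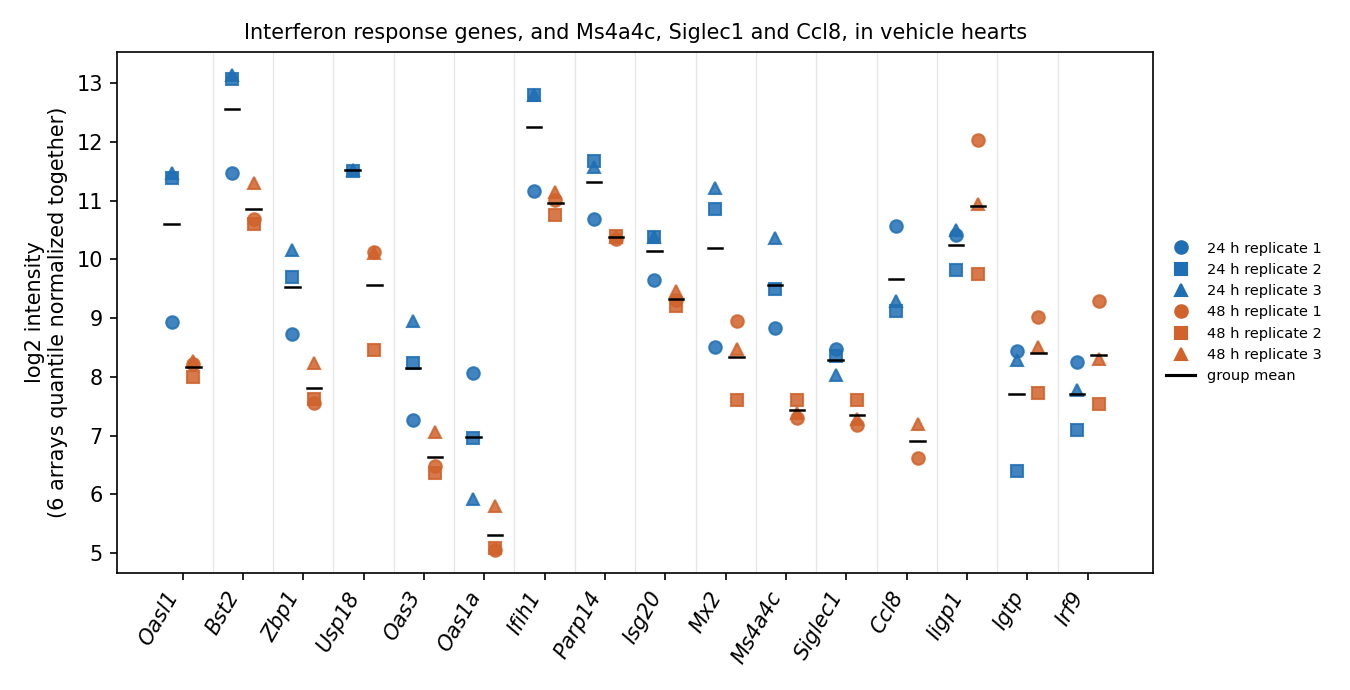
Log2 level of 16 genes on each of the 6 arrays (markers by replicate, blue 24 h, orange 48 h; black bars, group means). Oasl1, Bst2 and Zbp1 lie lower on all 48 h arrays, while Iigp1, Igtp and Irf9 overlap.

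Families of the response were compared after the values had been seen, so their counts are descriptions. Among the oligoadenylate synthetases 9 of 10 tested genes had a lower mean at 48 h, with a median of -0.95, and 3 were lower without overlap. The p200 family, DNA sensors of the nucleus and cytosol, was lower for 4 of 4 with a median of -0.92. Of these 4, 1 was lower without overlap, and Ifi205 differed by -0.55 with an SE of 1.74. Of the Parp family 10 of 12 were lower, with a median of -0.30, and 3 were lower without overlap. Over all genes 5.86% were lower without overlap. The immunity-related GTPases and the guanylate-binding proteins, which are also induced by interferon gamma, had medians of 0.33 (5 genes) and -0.009 (9 genes). The interferon genes themselves had a median of -0.03 over 10 tested, and MHC class I genes of -0.15 over 15. The Stat family had a median of 0.36 with 5 of 6 higher, and the interferon regulatory factors 0.10 with 7 of 10 higher. Medians of the remaining families compared were -0.43 (Ifit), -0.22 (Ms4a), -0.06 (Slfn), 0.009 (interferon receptors), 0.02 (Ifitm) and 0.03 (MHC class II). Other genes known as interferon-induced, picked after their values were seen and with no tally of such genes, include Sp110 (-1.88, second probe -0.52), Samd9l (-0.81, second probe -0.42), Ifi47 (-1.44), Parp10 (-1.18), Pml (-1.17, second probe -1.09) and Ifi202b (-1.48, second probe -0.26). Sp110, a nuclear body protein, had no value on 24 h replicate 1 and was at 10.62 and 11.04 on the other 24 h arrays, against 8.87, 8.88 and 9.10 at 48 h.

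Chemokines and cytokines had a median difference of -0.20 over 32 tested genes, 19 of them lower. Ccl8, a chemokine that draws monocytes, was at 10.57, 9.13 and 9.28 at 24 h and at 6.62 and 7.20 on the 48 h arrays that had a value, a difference of -2.75 (SE 0.53). The groups did not overlap, and 48 h replicate 2 had no value. Cxcl9, Ccl19 and Il18 were also lower at an unadjusted p under 0.05. Il18, a cytokine of the interleukin-1 family, was at 8.88, 9.15 and 9.23 against 7.53, 8.67 and 8.07, and Ccl19 differed by -1.08 (SE 0.40). The arrays of the list as a whole overlapped, with 48 h replicate 1 lowest at 7.11 and 24 h replicate 1 highest at 7.93; the median was -0.01 without 48 h replicate 1.

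Macrophage and monocyte markers had a median of -0.09 over 24 tested genes, of which 14 were lower, and the median was 0.03 on values as deposited and 0.04 with median centring. The list held members with opposite signs. Ctss, a lysosomal protease, was at 11.77, 12.05 and 12.24 at 24 h and at 10.75, 11.66 and 10.88 at 48 h, a difference of -0.92 (SE 0.33), and Aif1 differed by -0.67 (SE 0.27), in both cases with no overlap. Folr2, a marker of resident macrophages, had no value on 24 h replicate 1, 6.18 and 6.45 on the other 24 h arrays and 8.27, 8.56 and 8.49 at 48 h, a difference of 2.13 (SE 0.28). Siglec1, a sialic acid receptor of macrophages, was not in the list and was picked after its values were seen. It was at 8.47, 8.35 and 8.04 against 7.18, 7.60 and 7.29. Ms4a4c, also outside the list and taken in order of p, was at 8.83, 9.49 and 10.37 against 7.30, 7.61 and 7.38. Neither Siglec1 nor Ms4a4c overlapped between the times. Because the RNA came from tissue of mixed cell types, fewer cells of a type and less RNA per cell cannot be told apart. S100a9, a neutrophil protein, was at 11.59, 8.05 and 8.45 at 24 h and at 7.07 and 7.25 on 2 arrays at 48 h (-2.21, SE 1.11), and without 24 h replicate 1 the difference was -1.11. The neutrophil list had a median of 0.01 over 18 tested genes, with 1 higher (6.81% over all genes) and 2 lower (5.86%) without overlap. Its member of smallest p, Ctsg, was lower (-1.43, SE 0.36) and had no value on 24 h replicate 1. Bpi (2.47) and Trem1 (1.83) of that list were higher at an unadjusted p under 0.05. Their mean levels, 2.20 and 3.22, were below the median level of the vomeronasal receptors, 4.54, which are not expected in heart. For Bpi, 1 value was the lowest of its array.

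Genes of energy metabolism mostly had higher means at 48 h. The median was 0.98 for glucose use (16 of 20 tested higher), 0.96 for the tricarboxylic acid cycle (11 of 14), 0.74 for mitochondrial beta oxidation (13 of 14) and 0.33 for the respiratory chain and ATP synthase (26 of 31). Over all genes 51.7% were above 0. Of the glucose use genes 3 were higher at an unadjusted p under 0.05 (2.41% of all genes) and 7 were higher without overlap (6.81% of all genes), and for the cycle the counts were 1 and 3. Beta oxidation had 0 members at that p, 0 higher and 1 lower without overlap (5.86% of all genes were lower). The respiratory chain had 0 at that p and 2 of 31 higher without overlap, a share below that of all genes. The mean of the respiratory chain was 10.29, 10.30 and 10.26 at 24 h and 10.88, 10.41 and 10.555 at 48 h, higher on every 48 h array. Only 31 of its 67 genes on the array could be tested, and these means came from 18 of them. The levels of the other metabolic lists depended on single arrays. The mean of the cycle genes, from 7 with a value on all 6 arrays, was 11.40, 9.25 and 10.49 at 24 h and 12.44, 11.21 and 10.93 at 48 h. The lowest array was 24 h replicate 2 and the highest 48 h replicate 1, and 24 h replicate 1 was above 2 of the 48 h arrays. The median of glucose use was 0.54 without 24 h replicate 2 and 0.58 without 48 h replicate 1. For the cycle it was 1.61 without 24 h replicate 1 and 1.62 without 48 h replicate 2. For beta oxidation it was 0.45 without 48 h replicate 1. The part of the separate scaling in these differences was not tested.

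Glucose entry and phosphorylation were represented by Slc2a4, the insulin-regulated transporter GLUT4, at 10.08, 9.02 and 8.91 at 24 h and at 11.20, 10.35 and 10.43 at 48 h, a difference of 1.32 (SE 0.42). Its groups did not overlap, and its second probe differed by 1.12. Hk1, a hexokinase, was at 9.06, 7.37 and 8.20 against 10.27, 8.97 and 9.53 and overlapped; Hk2, the form of insulin-sensitive muscle, was at 11.96, 11.65 and 11.60 against 13.90, 12.30 and 12.19 and did not. Pfkm, the muscle phosphofructokinase, had 2 values a time, 12.20 and 12.04 against 13.25 and 13.43. In the cycle, the succinate dehydrogenase subunit Sdhc was at 12.24, 9.996 and 10.88 against 13.91 and 12.54, and Dld, a subunit shared by the 2-oxoacid dehydrogenases, at 10.36, 6.61 and 8.95 against 12.52, 10.30 and 9.84. Crat, which links acetyl groups to carnitine, was at 12.16, 10.03 and 10.26 against 13.84, 11.86 and 12.15. Sdhc was above every 24 h array; Dld and Crat overlapped through 24 h replicate 1.

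The list of antioxidant enzymes and metallothioneins had a median of 0.77, with 13 of 16 tested genes above 0 and the highest mean on 48 h replicate 1. Sod2, the manganese superoxide dismutase of mitochondria, was at 12.67, 11.62 and 11.87 at 24 h and at 13.85, 12.87 and 12.86 at 48 h (1.14, SE 0.42). Txn2, mitochondrial thioredoxin, and Txnrd2, its reductase, differed by 1.11 (SE 0.44) and 0.96 (SE 0.31). Sod2 did not overlap between the times, Txn2 did, and Txnrd2 had 2 values a time, none of them on 48 h replicate 1. Without 24 h replicate 2 the median of the list was 0.42 and without 24 h replicate 3 it was 0.50. Proteasome subunits and chaperones were also mostly higher, with medians of 0.44 (30 of 35) and 0.46 (20 of 25); without 24 h replicate 1 the proteasome median was 0.68 and without 48 h replicate 1 it was 0.28. Dnajb1, a cochaperone of Hsp70, was at 8.48, 6.85 and 7.24 at 24 h and at 8.82, 8.84 and 8.51 at 48 h, a difference of 1.203 (SE 0.45), and its arrays did not overlap.

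**Figure D3:**
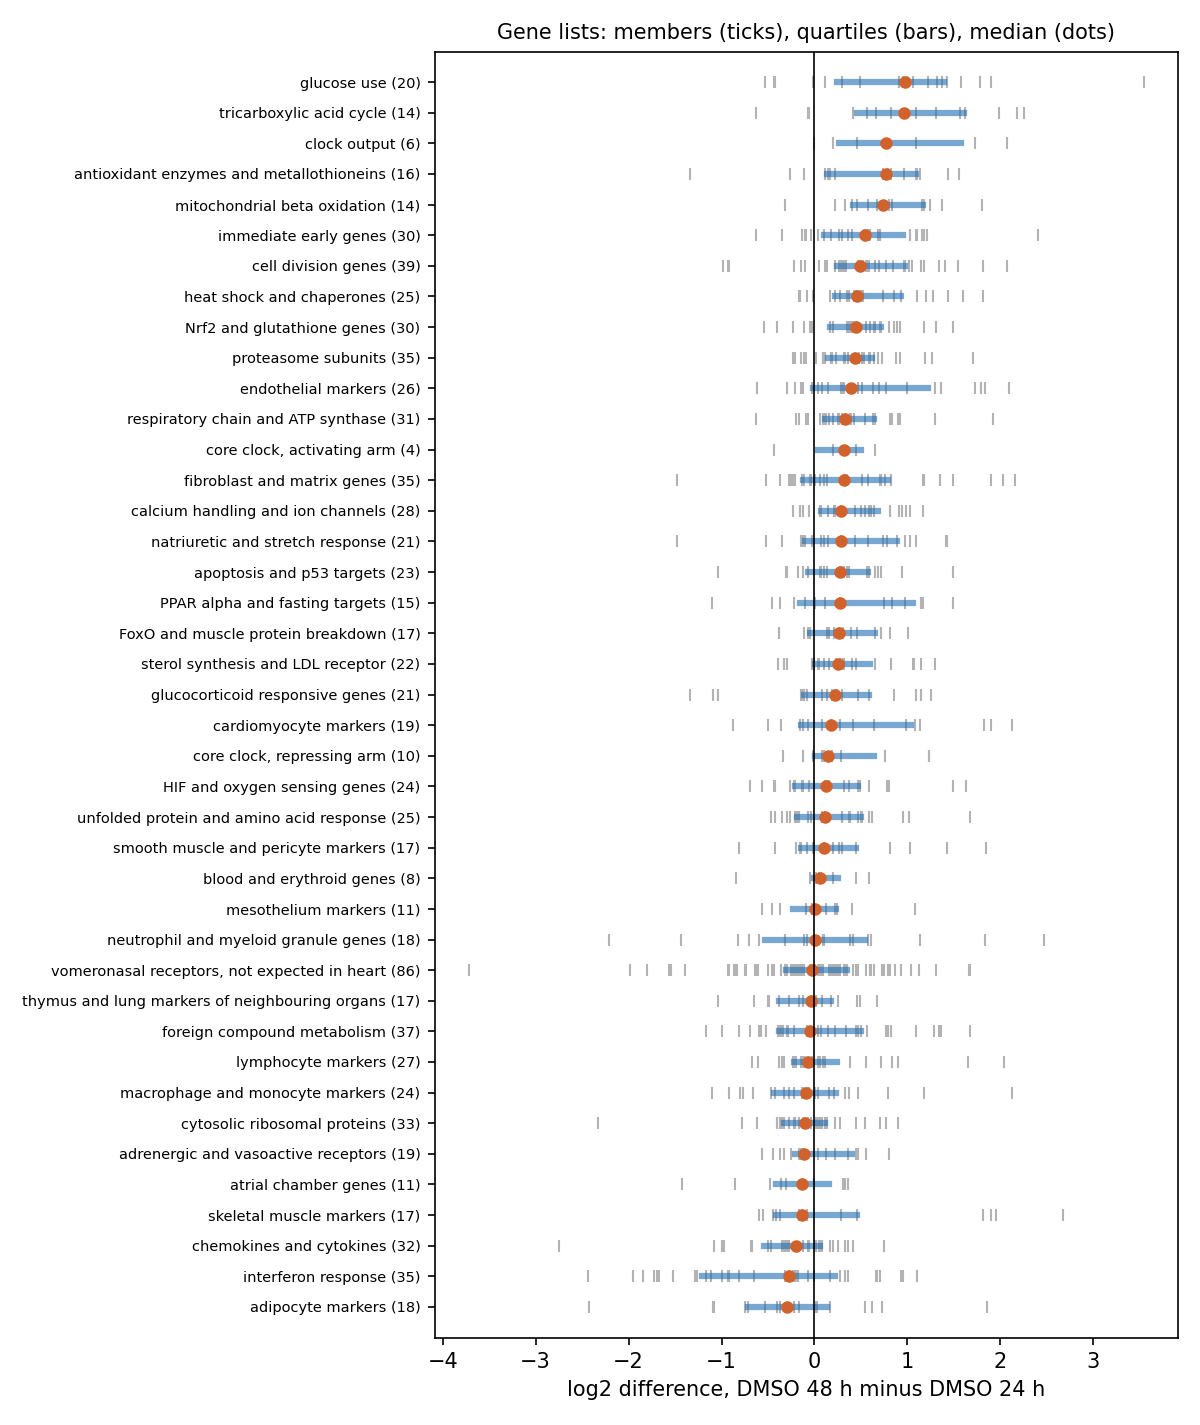
Log2 difference between 48 h and 24 h for each tested member (ticks), quartiles (bars) and median (dots) of 41 gene lists, with the number tested in brackets. The medians run from -0.30 for adipocyte markers to 0.98 for glucose use.

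Immediate early genes and genes of cell division had higher mean levels on every 48 h array than on any 24 h array. For cell division the means were 6.03, 6.13 and 6.14 at 24 h and 6.85, 6.19 and 6.59 at 48 h. There, 48 h replicate 2 was only just above the highest 24 h array. The mean of the early genes was 7.71, 6.93 and 7.46 at 24 h and 7.98, 8.13 and 7.80 at 48 h, and 24 of 30 tested genes were above 0, with a median of 0.55. At an unadjusted p under 0.05, 5 early genes were higher (2.41% over all genes) and 0 lower. Dusp1, a phosphatase that ends MAP kinase signals, was at 9.22, 8.36 and 8.29 against 9.66, 9.88 and 9.62, a difference of 1.10 (SE 0.32). Zfp36, which speeds the decay of cytokine mRNAs, had no value on 24 h replicate 1 and was at 9.49 and 8.77 against 10.16, 10.59 and 10.16. Ccn1, a matrix-associated growth signal, was at 8.76, 7.75 and 8.58 against 9.68, 9.25 and 9.25, and Ier2 at 8.12, 6.99 and 7.97 against 9.21, 8.54 and 8.42. In all of these the 48 h arrays were above the 24 h arrays. Jun, part of the AP-1 transcription factor, differed by 0.58 (SE 0.26), also without overlap.

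Of the cell division genes 33 of 39 tested were above 0, with a median of 0.49; 7 were higher at an unadjusted p under 0.05 (2.41% over all genes) and 10 were higher without overlap (6.81% over all genes). Cdc20, the activator of the anaphase-promoting complex, had no value on 24 h replicate 1 and was at 3.83 and 4.19 against 6.30, 5.67 and 6.28. Kif20a, a motor of cytokinesis, was at 4.96, 4.51 and 3.36 against 5.78, 5.76 and 5.49, a difference of 1.40 (SE 0.44). Ube2c was at 6.99, 6.28 and 6.50 against 7.97, 7.07 and 7.65, and Ccnd2, a cyclin of the G1 phase, at 9.42, 8.45 and 8.97 against 9.97, 9.63 and 9.76. The groups did not overlap for any of these, and the median level of the list, 6.35, was close to the 6.14 of all probes. The mean levels of Cdc20 and Kif20a, 5.25 and 4.98, were below that of all probes and near the 4.54 of the vomeronasal receptors. The median of the list was 0.28 without 24 h replicate 1 and 0.81 without 48 h replicate 2. Cdkn1a, the cell cycle inhibitor p21, was lower, at 7.91, 8.24 and 8.16 against 6.68, 7.38 and 7.13, a difference of -1.04 (SE 0.28).

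**Figure D4:**
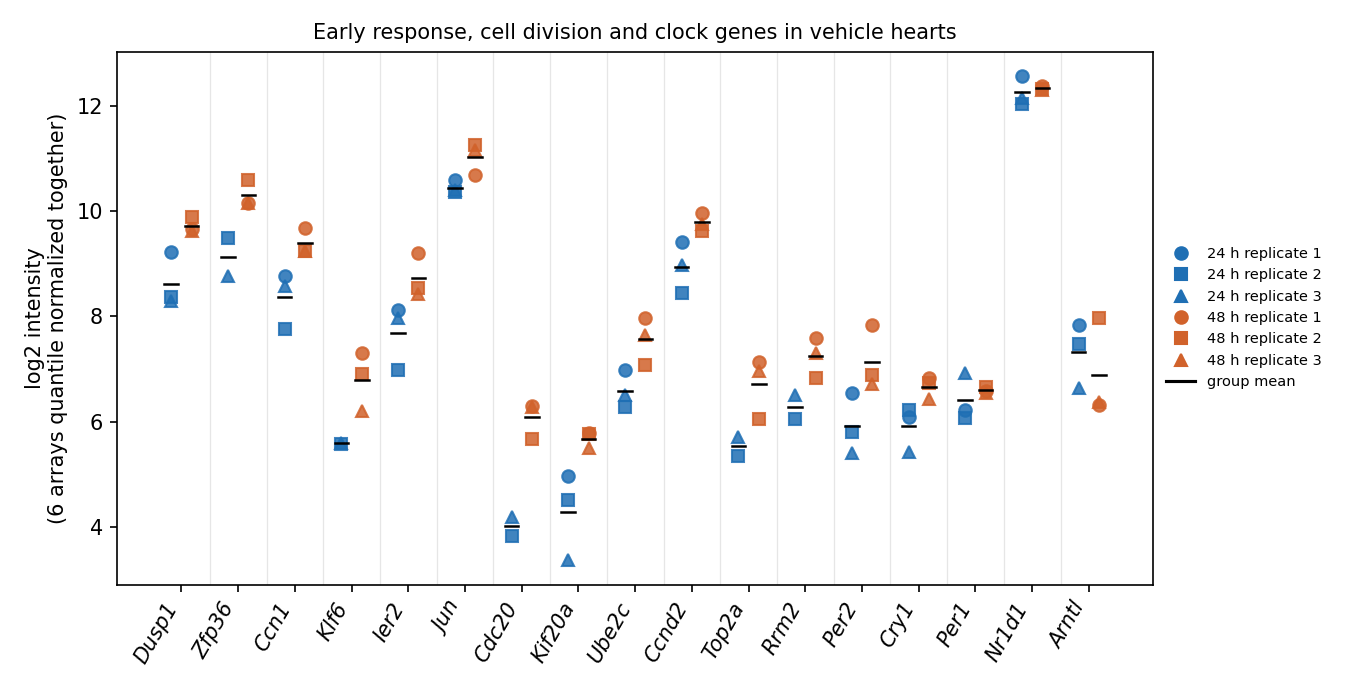
Log2 level of 17 early response, cell division and clock genes on each of the 6 arrays (markers by replicate, blue 24 h, orange 48 h; black bars, group means). Dusp1, Ccn1, Kif20a and Per2 are higher on all 48 h arrays, while Per1, Nr1d1 and Arntl overlap.

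The mean of the repressing clock genes was 6.63, 6.40 and 6.65 at 24 h and 7.24, 6.83 and 6.78 at 48 h, higher on every 48 h array. Most single clock genes overlapped, and the labels give hours since dosing but no hour of the day. Per2, which represses CLOCK and BMAL1, was at 6.54, 5.80 and 5.40 at 24 h and at 7.83, 6.89 and 6.71 at 48 h, a difference of 1.23 (SE 0.44), and Cry1, its partner, differed by 0.76 (SE 0.30). Neither overlapped. Nr1d1 (12.57, 12.04 and 12.16 against 12.39, 12.32 and 12.31) and Per1 (6.22, 6.07 and 6.92 against 6.58, 6.66 and 6.54) overlapped, with differences of 0.08 and 0.19. The other repressing members differed by 1.23 for Bhlhe40, 0.29 for Nr1d2, 0.10 for Per3, -0.02 for Cry2, -0.13 for Ciart and -0.34 for Bhlhe41. Of the activating arm, Arntl, which encodes BMAL1, differed by -0.43 (SE 0.55), Clock by 0.19, Npas2 by 0.45 and Rora by 0.66, and all overlapped. Among output genes, Nampt, an enzyme of NAD synthesis, differed by 2.07 (SE 0.57) and Wee1, a kinase that holds back mitosis, by 1.73 (SE 0.74). Tspan4 differed by 1.09, Tef by 0.46, Hlf by 0.20 and Nfil3 by less than 0.01. Nampt had no value on 24 h replicate 1.

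The cardiomyocyte markers that could be tested had a median level of 9.93, against 6.14 over all probes. Single members varied, with Mef2a at a mean level of 7.84 and Slc8a1 at 8.36. Ttn, the giant spring protein of the sarcomere, was at 13.32 to 14.52 on the 5 arrays with a value, and Tnnc1, the cardiac troponin C, at 12.35 to 13.91. Of 34 listed markers 19 were tested and 15 were not, among them Actc1, Atp2a2, Myl2, Tnni3, Tnnt2 and Pln. Probes of very high level often had no value: of 131 probes with a mean above 14, between 5.34% and 69.5% were missing on an array. The tested markers had a median of 0.18, with 11 above and 8 below 0, and limma called 0. Tnnc1 was at 13.09, 12.78 and 12.35 at 24 h and at 13.91 and 13.73 at 48 h, a difference of 1.08 (SE 0.33). Slc8a1, the sodium-calcium exchanger, was at 8.25, 8.07 and 7.79 against 8.85, 8.64 and 8.53 (0.64, SE 0.25), and its second probe differed by 0.13. The groups of Tnnc1 and of the brighter Slc8a1 probe did not overlap. Ckm, muscle creatine kinase, differed by 1.90 (SE 0.83), Myh6, the fast cardiac myosin, by 2.12 (SE 1.19) and Actn2 by 1.82 (SE 1.22), all with overlap. Mef2a, a transcription factor, differed by -0.87 (SE 0.27) on its brighter probe and by 0.62 on its second probe. The remaining markers differed by 1.13 for Tcap, 0.99 for Casq2, 0.41 for Ldb3, 0.28 for Ttn, 0.18 for Mef2c, 0.08 for Nkx2-5, -0.07 for Gata4, -0.12 for Nebl, -0.13 for Myh7, -0.15 for Hand2, -0.16 for Ryr2, -0.36 for Myl4 and -0.50 for Tbx20. Genes of calcium handling and ion channels had a median of 0.29 over 28 tested, 23 of them above 0, and its mean was higher on every 48 h array than on any 24 h array.

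Markers of other heart cell types had medians on both sides of 0. Endothelial markers had a median of 0.39 (19 of 26 above 0), which was 0.69 without 24 h replicate 1 and 0.20 without 24 h replicate 3, and Kdr, the main VEGF receptor, was at 11.81, 10.12 and 11.004 against 12.43 and 12.11. Robo4, an endothelial guidance receptor, had no value on 24 h replicate 1 and was at 6.94 and 7.13 against 8.56, 8.03 and 8.62. Fibroblast and matrix genes had a median of 0.32 over 35 tested, which was 0.17 without 24 h replicate 3 and 0.18 without 48 h replicate 1. Lum, a collagen-binding proteoglycan, and Postn, a matrix protein, differed by 2.16 (SE 0.44) and 2.03 (SE 0.65), each without a value on 24 h replicate 1, and Col6a1 by 1.17 (SE 0.43). Timp1, an inhibitor of matrix metalloproteinases, was lower, at 9.44 and 10.12 against 7.75, 9.22 and 7.94. Smooth muscle and pericyte markers had a median of 0.11, with 9 of 17 above 0. Without overlap, 1 was higher (6.81% over all genes) and 3 were lower (5.86% over all genes). Cnn1, the smooth muscle calponin, differed by -0.81 (SE 0.27). Acta2, the smooth muscle actin, was at 12.02, 9.84 and 10.75 against 13.75, 12.21 and 12.18. Of these genes, Kdr, Robo4, Lum, Postn, Timp1, Cnn1 and Acta2 did not overlap between the times.

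Adipocyte markers had the lowest median, -0.30 over 18 tested, with 7 above 0 and up to 1.86 (Pnpla2, a lipase). At an unadjusted p under 0.05, 1 was lower (1.56% over all genes). The array means overlapped, with 24 h replicate 3 highest at 8.24. Adipoq, the adipocyte hormone adiponectin, was at 10.22, 10.51 and 11.30 at 24 h and at 8.99, 10.18 and 9.63 at 48 h, a difference of -1.08 (SE 0.43). Ucp1, the uncoupling protein of brown fat, was at 4.83, 6.17 and 8.48 against 5.30, 3.83 and 3.09, a difference of -2.42 (SE 1.01), with overlap and with 24 h replicate 3 the highest array. Without 24 h replicate 3 the difference of Ucp1 was -1.44. The median of the list was -0.52 without 24 h replicate 1 and -0.13 without 48 h replicate 3. Vomeronasal receptors, which serve as genes with no role in heart, had a median of -0.03 over 86 tested, with 40 above 0.

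**Figure D5:**
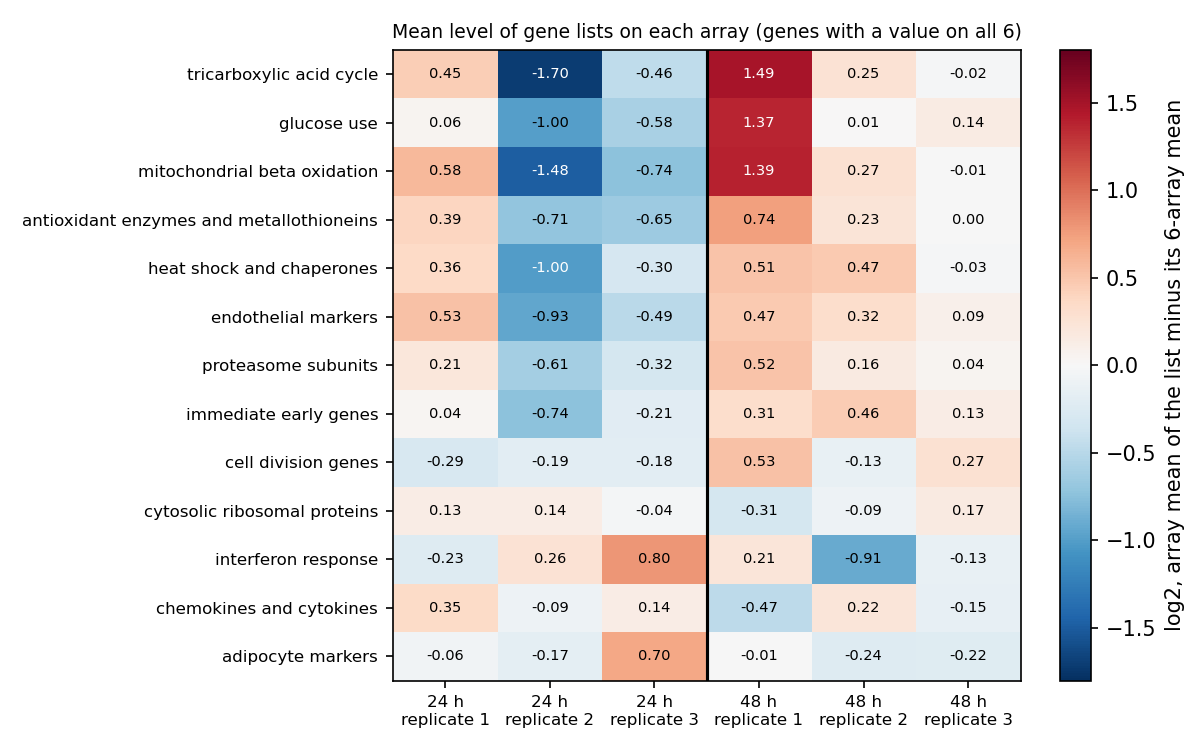
Mean log2 level of 13 gene lists on each of the 6 arrays, as the deviation from the list's mean over the 6 arrays, from genes with a value on all of them. Metabolic lists are lowest on 24 h replicate 2 and highest on 48 h replicate 1, and the interferon response is highest on 24 h replicate 3 and lowest on 48 h replicate 2.

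By the naming rule, 8 genes were taken for each direction, in order of p, from genes above the median level whose groups did not overlap, so the lack of overlap was set by the choice. Higher at 48 h were Folr2, Yipf4, Carm1, Hdgf, Ccndbp1, Kif4-ps, Ppic and Mgll, and all 8 lacked a value on 24 h replicate 1. Hdgf, a nuclear growth factor, was at 5.37 and 6.71 on the other 24 h arrays and at 9.18, 9.47 and 8.44 at 48 h (2.99, SE 0.54), and Mgll, which hydrolyses monoacylglycerols, at 4.61 and 5.75 against 8.22, 7.25 and 7.49 (2.47, SE 0.49). Carm1, an arginine methyltransferase, was at 5.96 and 6.31 against 8.54, 7.78 and 8.01 (1.97, SE 0.35). The gaps were not spread evenly over the genes: this array lacked a value for 9.56% of all genes, 36.5% of the 427 genes higher at an unadjusted p under 0.05 and 17% of the 276 lower ones. Among the 50 higher genes with the smallest p it lacked 37 (74%), and among the 50 lower genes 10 (20%). For genes with a value on all 6 arrays, 4.75% were higher and 4.06% lower without overlap, against 20.7% and 16% for genes without a value on 24 h replicate 1, where 2 values and not 3 had to be passed. The part of these gaps in the higher genes was not tested.

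Lower at 48 h by the same rule were Sp110, Ms4a4c, Ccl8, Zc3hav1, Acp5, Zbp1, Nek5 and Cdkn1a. Zc3hav1, the zinc finger antiviral protein that binds viral RNA, had no value on 24 h replicate 1 and was at 8.04 and 8.12 against 6.60, 6.76 and 6.89 (-1.33, SE 0.27). Acp5, a phosphatase of macrophages and osteoclasts, was at 8.27, 8.63 and 8.91 against 6.92 and 7.21 (-1.54, SE 0.32), and Nek5, a NIMA-related kinase, at 7.40, 7.66 and 7.39 against 6.73, 6.66 and 6.48 (-0.86, SE 0.23). Of these 8 genes, Sp110 and Zc3hav1 had no value on 24 h replicate 1, and Ccl8 and Acp5 had none on 48 h replicate 2.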

How the data were processed

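The 6 vehicle arrays were taken from the deposited table of 12 arrays; the other 6 columns were not used, and 0 columns lacked a sample. Values are log2 as deposited by the authors, read from their range; background correction, normalization and platform software are not given in the sources used here. In R 4.3.3, limma 3.58.1 quantile-normalized the 6 arrays together and fitted 48 h minus 24 h with lmFit and eBayes, with Benjamini-Hochberg adjustment over the 35450 probes with at least 2 values in each group (777 were not tested) and a threshold of 0.05. The annotation of the platform gave 1 symbol for 21615 probes, several for 681 and none for 13931, and 21487 were found in RefSeq (0 symbols updated). A gene is its tested probe of highest mean. The 41 gene lists and the members of the comparison were chosen with earlier results of these data known. Named genes were, for each direction, up to 15 past the threshold or, with fewer than 8, non-overlapping genes above the median level in order of p to reach 8; up to 4 members of each list; and all tested clock and cardiomyocyte genes. Other genes and the families were chosen after their values were seen. The fit was tested on simulated data. Alternatives changed the scaling, filters, prior, array weights, replicate block, probe choice and each array in turn. Plots used Python and matplotlib. Precision is limited by having 3 arrays per time.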

Additional observations from a re-analysis of the deposited data

How the results depend on the processing

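The count of probes past the threshold was 0 in each direction under each of the 17 alternatives. At an unadjusted p under 0.05 it was 5269 on values as deposited, where the median shift was 0.33 and 92.7% of these probes were higher, 2581 with median centring, 2235 with array weights, 1607 with a trended and robust prior (smallest adjusted p in limma 0.0801) and 879 over probes valued on all 6 arrays, against 1368; leaving out 1 array gave 808 to 4080. With the replicate number as a block it was 2216, with 0 calls. The deviations of same-numbered arrays from their group means correlated at 0.113, -0.0977 and -0.00329. Not every array correlated best with its own number (24 h replicate 2 with 48 h replicate 3, 0.254). With 3 arrays centred per group these values depend on each other. Whether same-numbered arrays shared handling was not tested.

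Of 117 genes named in the text, 98 kept their sign in all alternatives run, and of 41 list medians 28 did. The medians that changed sign under some alternative were those of the HIF, PPAR alpha, adrenergic and vasoactive, atrial, blood, cytosolic ribosomal, foreign compound, macrophage, mesothelium, neutrophil, skeletal muscle, thymus and lung, and vomeronasal lists. Gene and list values on deposited values are relative to that setting's median shift. The genes that changed sign were near 0 or had probes or arrays that disagreed. Leaving out 1 array gave -0.027 to 0.24 for Nr1d1, -0.052 to 0.39 for Clock, -0.23 to 0.027 for Gata4, -0.57 to 0.16 for Hand2, -0.062 to 0.33 for Mef2c, -0.96 to 0.34 for Myh7, -0.40 to 0.086 for Nebl, -0.067 to 0.19 for Nkx2-5, -0.11 to 0.48 for Ttn, -0.13 to 0.15 for Nfil3, -0.38 to 0.33 for Ciart, -0.24 to 0.22 for Cry2, -0.43 to 0.38 for Per3, -3.51 to 1.00 for Oasl2, -3.14 to 0.41 for Xaf1. On values as deposited the differences were 0.13 for Gata4, 0.12 for Myh7, 0.15 for Nebl, 0.16 for Nfil3, 0.074 for Ciart. With median centring they were 0.14 for Gata4, 0.12 for Myh7, 0.16 for Nebl, 0.17 for Nfil3, 0.079 for Ciart. With cyclic loess the difference was 0.020 for Nfil3, with array weights -0.063 for Per3 and with the replicate block 0.15 for Nfil3. With position block medians removed, an alternative added after seeing the data, it was 0.031 for Gata4. The second probe gave -1.01 for Iigp1, 0.62 for Mef2a, -0.12 for Ttn, -0.093 for Rora, 0.85 for Bhlhe41, -0.31 for Per3, 0.15 for Xaf1. The causes were not tested. Leaving out 1 array moved 49 of the 117 named differences by over 1.5 times.

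Precision is bounded by the 3 arrays of each time, and many genes of very high level had no value, so heart genes such as Actc1 and Atp2a2 could not be compared.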
